A study of Mus musculus with 67 samples.

Results

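The extra-embryonic ectoderm (ExE) of the mouse embryo at embryonic day (E) 5.5 was compared between embryos grown in culture and embryos that had implanted in the uterus. The libraries were taken by their labels: 3 from cultured embryos and 2 from embryos in vivo, 5 of the 67 libraries of the series, and all genes of the table were considered. The embryos of both groups were wild type, at the same stage (E5.5), and the series used a mouse line in which the Pdgfra promoter drives EGFP. In vivo embryos came from natural matings and were dissected out of the decidua, and cultured embryos developed in a 3D culture system and were freed from Matrigel, per the labels' protocols. Embryos of both groups were dispersed with trypsin into cells. Each library was made from about 10 to 100 cells by Smart-seq2, a full-length cDNA method, with 17 cycles of amplification. The labels describe the replicates as biological, without saying which embryos or litters each came from. The p-values rest on the spread between libraries of the same group, estimated for each gene over all 67 libraries of the series. How long the embryos were cultured is not stated for each library, and any preparation date, run or pooling of embryos is not given in the sources used here, so such a difference and culture itself cannot be told apart.

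The ExE is the part of the trophoblast that stays next to the epiblast, the layer that forms the body. It holds trophoblast stem cells under FGF and NODAL signals from the epiblast, signals back to it with BMP4, and gives rise to the ectoplacental cone and later much of the placenta. Visceral endoderm (VE) wraps both the epiblast and the ExE. Elf5 is a transcription factor that keeps trophoblast cells in their lineage, and Cdkn1a encodes p21, an inhibitor of cyclin-dependent kinases and a textbook target of p53, the transcription factor that answers DNA damage and other stress.

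Values are TPM, a gene's share of the transcripts of a library, scaled for gene length. Differences are log2(TPM + 1), cultured minus in vivo, so that changes of low genes are understated. A gene was said to rise or fall when limma's adjusted p was under 0.05 and the difference was at least 1. Of 15567 genes tested, 1464 rose in culture (9.40%) and 378 fell (2.43%). The 3 cultured libraries all lay above or all below both in vivo libraries for 1384 of the genes that rose and 350 of those that fell. These genes were selected for a large difference between the same libraries. The share of all genes tested that separate in this way was not computed, so the counts are no further support. The median difference over all genes was 0.19. It was 0.05 after median-ratio scaling, with 957 genes higher and 469 lower, and -0.04 after quantile normalization, with 745 higher and 702 lower. With the spread estimated from the 5 libraries alone, 465 genes rose and 166 fell.

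The libraries of each group resembled each other more than those of the other group. Pearson's r over genes was 0.976 to 0.977 among cultured libraries, 0.965 between the in vivo libraries and 0.948 to 0.949 between groups. Cultured libraries held 10933 to 11160 genes at 1 TPM or more, and in vivo libraries 9786 to 9863. Actb, the cytoplasmic actin, was 35419.6, 40638.3 and 36291.8 TPM in the cultured libraries and 67243.0 and 56197.2 TPM in vivo. Among the genes that rose, 365 were listed at 0 in both in vivo libraries. The part of these differences between libraries in the results was not tested.

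**Figure D1:**
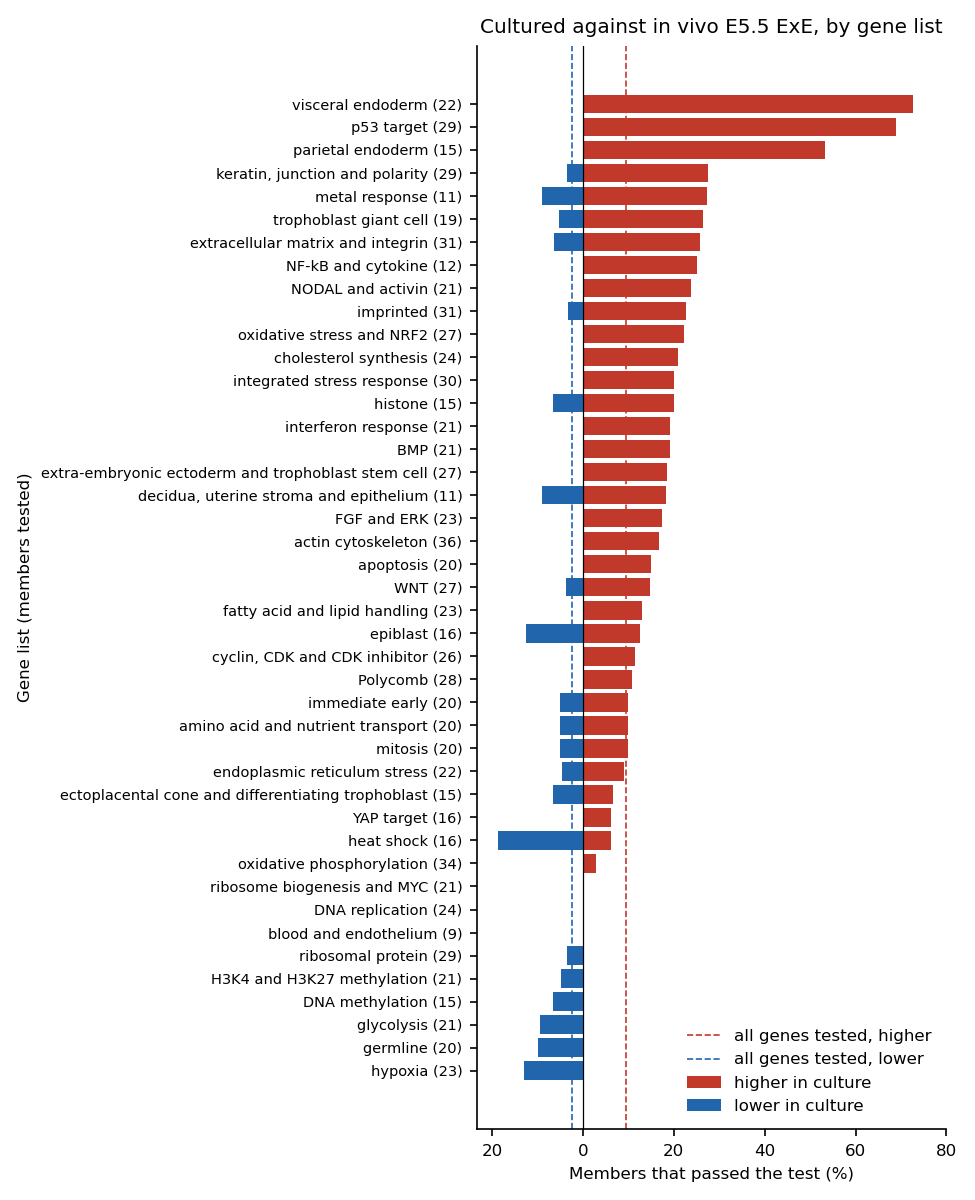
Percent of the tested members of each of 43 gene lists that rose (red, right of 0) or fell (blue, left of 0) in cultured E5.5 ExE, for lists of at least 9 tested members, with the number tested in brackets; dashed lines mark all genes tested (9.40% higher, 2.43% lower). Visceral endoderm markers, p53 targets and parietal endoderm markers have the longest bars, all to the right.

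Most genes that define the ExE did not pass the test in either direction. The same held for all genes, of which 9.40% rose and 2.43% fell. Of 27 genes of the ExE and of trophoblast stem cells, 5 rose and none fell, with a median difference of 0.32. The count was 3 without either in vivo library, with a pseudocount of 0.1 TPM, under quantile normalization, under median-ratio scaling and after subtraction of a VE profile (described with the VE genes), and 1 in the fit of the 5 libraries alone. Elf5 (GRCm38 chromosome 2, 103411688 to 103450989, plus strand) was 151.2, 135.1 and 156.0 TPM in the cultured libraries and 42.8 and 44.1 TPM in vivo. Every cultured library was above both in vivo libraries, and the difference was 1.74 ± 0.27 (SE, limma, adjusted p = 2.8e-06), or 3.39-fold on the means. Elf5 was also 198.4 TPM on average in ExE of E4.75 (n = 3) and 16.6 TPM in cultured trophoblast giant cells of E5.5. The sample labels do not say whether the E4.5 and E4.75 embryos were cultured.

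Eomes, a T-box factor of trophoblast, was 112.8, 127.2 and 107.9 TPM in culture and 133.3 and 118.0 TPM in vivo, and the groups overlapped. Bmp4, the ExE's signal to the epiblast, was 299.4, 319.8 and 337.7 TPM in culture and 316.1 and 245.3 TPM in vivo, also overlapping. Esrrb, a nuclear receptor of trophoblast stem cells, was 19.2 ± 2.29 TPM in culture and 21.4 ± 3.3 TPM in vivo (SD, n = 3 and n = 2). Cdx2, the factor that sets up the trophectoderm, was low and uneven, at 12.9, 3.17 and 4.27 TPM in culture and 0 and 8.6 TPM in vivo. These genes were chosen as defining markers after their values were seen, and none of them passed the test. The most abundant of the list that did not pass were Rhox5, an X-linked homeobox gene, at 4870.9 to 4946.1 TPM in culture against 3974.7 and 3980.7 TPM in vivo, and Id2, an inhibitor of differentiation factors, at 945.8 to 1138.9 against 1489.8 and 1557.2 TPM.

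The other members that rose were low in vivo. Krt7, a simple-epithelium keratin, was 52.5, 41.9 and 30.6 TPM in culture and 16.6 and 3.81 TPM in vivo (2.18 ± 0.59, adjusted p = 0.0062). Rhox9, a homeobox gene of the X-linked Rhox cluster, was 18.1, 21.5 and 12.1 TPM in culture and 7.73 and 0 TPM in vivo (2.59 ± 0.76, adjusted p = 0.012). Both rest on the second in vivo library: without it the differences were 1.25 (adjusted p = 0.32) and 1.03 (adjusted p = 0.6). Nodal, the ligand that is best known from the epiblast, was 1.12, 4.22 and 1.25 TPM in culture and listed at 0 in both in vivo libraries. After the VE subtraction Nodal was 0, 2.2 and 0 TPM in culture. Furin, a protease that activates NODAL, was the fifth.

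**Figure D2:**
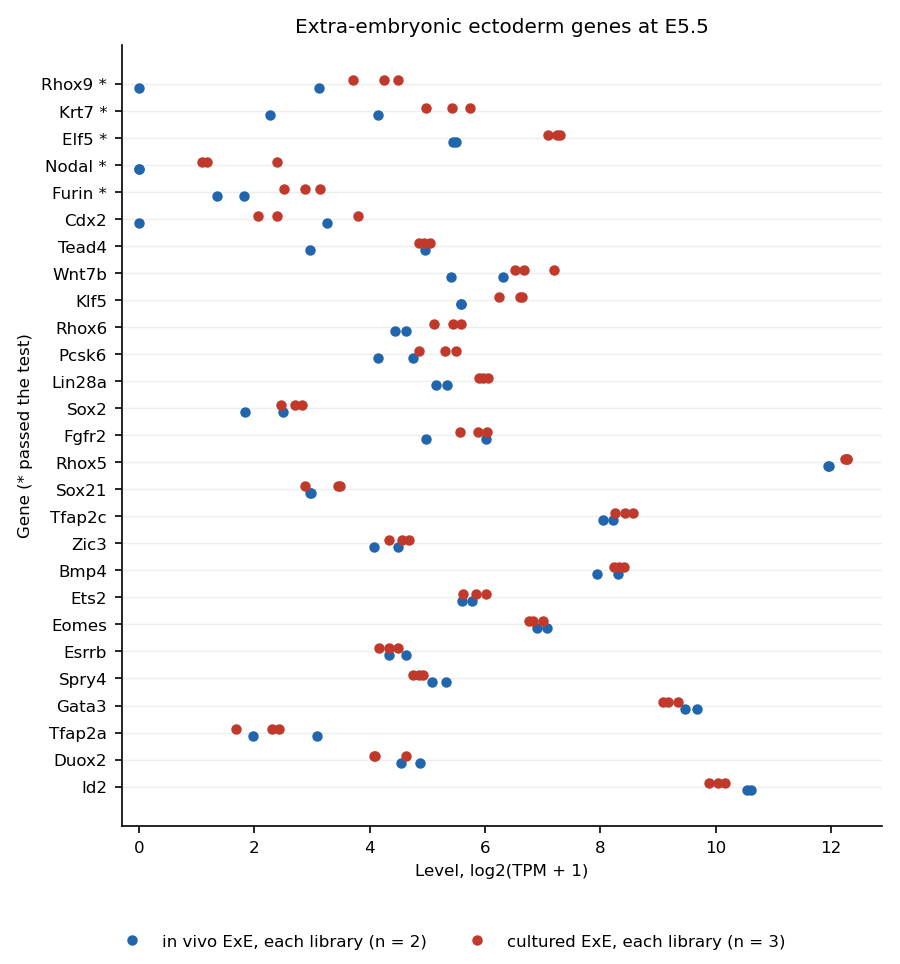
Level, as log2(TPM + 1), of the 27 ExE and trophoblast stem cell genes in each cultured (red) and each in vivo (blue) E5.5 ExE library, ordered by the difference; stars mark the 5 genes that passed the test. Elf5 separates by group, at 135.1 to 156.0 TPM against 42.8 and 44.1 TPM, while Eomes, Bmp4 and Esrrb overlap.

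The counts for other trophoblast types and for the epiblast stand beside 9.40% higher and 2.43% lower among all genes. Among 15 genes of the ectoplacental cone and differentiating trophoblast, 1 rose and 1 fell. Phlda2 (chromosome 7, 143501545 to 143503150, minus strand), an imprinted gene that restrains placental growth, was 352.9, 312.8 and 345.4 TPM in culture and 1987.5 and 1875.7 TPM in vivo. Its difference was -2.52 ± 0.36 (adjusted p = 3.9e-07), with no overlap. Hand1, a factor of giant cell differentiation, was 141.1, 125.1 and 146.9 TPM in culture and 58 and 72.3 TPM in vivo (1.07 ± 0.37, adjusted p = 0.037), and missed the threshold when any of the 5 libraries was left out (adjusted p 0.052 to 0.25).

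Of 19 trophoblast giant cell genes, 5 rose and 1 fell. The placental lactogen gene Prl3d1, a giant cell hormone, was 34 to 53.2 TPM in culture and 22.5 and 58.6 TPM in vivo, far under the mean of 109215.6 TPM in cultured giant cells of E5.5. Tfpi, an inhibitor of coagulation, was 53.5, 49.4 and 67.2 TPM in culture and 9.06 and 0 TPM in vivo (4.17 ± 0.56, adjusted p = 1.0e-07), and was 163.1 TPM on average in cultured VE, 3026.0 TPM in cultured giant cells of E5.5 and 135.9 TPM in ExE of E4.75. With the cultured VE profile subtracted, Tfpi was 38.4 to 55.7 TPM in the cultured libraries. Adm, the vascular peptide adrenomedullin, was listed at 0 in the 3 cultured libraries and was 6.07 and 4.82 TPM in vivo. Pou5f1, the pluripotency factor of the epiblast, was listed at 0 in all 5 libraries. Of 16 epiblast genes 2 rose and 2 fell. Those that rose, Fgf5 and Otx2, averaged 148.1 and 104.4 TPM in cultured VE, and Dppa5a fell from 463.4 and 539.4 TPM in vivo to 239.8, 231.1 and 235.7 TPM in culture. Blood and endothelial markers did not pass the test in any of 9 cases. Among 11 decidual and uterine genes, Bmp2 and Des rose and Alpl fell, and Dcn, Lum and Pgr, markers of uterine stroma, were listed at 0 in both in vivo libraries.

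Visceral endoderm genes were the list with the largest share of members that rose. Of 22 tested, 16 rose and none fell (all genes: 9.40% higher and 2.43% lower). The median difference was 3.30 against 0.19 for all genes. Dab2, an endocytic adaptor of endoderm, was 503.0, 473.2 and 563.6 TPM in culture and 2.33 and 4.96 TPM in vivo (6.85 ± 0.33, adjusted p = 5.6e-23). Spink1, a secreted protease inhibitor, was 592.9, 741.7 and 724.6 TPM in culture and 0.983 and 12.4 TPM in vivo (7.05 ± 0.51, adjusted p = 1.3e-15). The carrier proteins Ttr and Apom were 79.7 to 100.5 TPM and 92.9 to 101.7 TPM in culture, and neither reached 1 TPM in vivo. In ExE of E4.75 these genes were also present, with means of 471.8 TPM for Dab2, 316.6 TPM for Spink1, 58 TPM for Ttr and 54.3 TPM for Apom (n = 3). All 3 cultured libraries were high and no library of the groups overlapped for these genes.

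The endoderm transcription factors rose with them. Gata4 was 35.6, 18.6 and 20.8 TPM in culture and listed at 0 in both in vivo libraries, where Gata6, Hnf4a, Apob and Apoa2 were listed at 0 as well. Sox17 was 14.4, 8.91 and 19.7 TPM in culture and at most 0.0399 TPM in vivo. These factors are named after their values were seen. Apoe and Rbp4, the most abundant members that did not pass, were 1416.4 to 1670.5 TPM against 893.4 and 941.5 TPM, and 7.86 to 10.7 TPM against 6.39 and 11.2 TPM.

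These levels can be set against those in VE libraries from cultured embryos. Over the 20 members with at least 10 TPM in cultured VE, the median ratio to cultured VE was 11.2%, 8.81% and 10.7% in the cultured ExE libraries, and 0.0202% and 0.08% in vivo. The ratio of a given gene in the cultured ExE libraries ranged from 0 to 39.2%. Summed over the list, the level was 3201.9 to 3454.6 TPM in cultured ExE, 917.4 to 991.2 TPM in vivo and 28689.4 TPM on average in cultured VE. Most of the in vivo sum was Apoe, which did not pass the test. In such pooled libraries, fewer or more cells of a type and less or more RNA per cell cannot be told apart. Of 15 parietal endoderm genes, 8 rose and none fell (all genes: 9.40% higher and 2.43% lower). Among these, Col4a1, a basement membrane collagen, was 16.7, 15.2 and 22.4 TPM in culture and listed at 0 in both in vivo libraries, with 121.5 TPM in cultured VE. Over all genes that rose, 799 (54.6%) had a higher mean in cultured VE than in cultured ExE, against 47.4% of all genes tested.

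To set further results beside this, the mean cultured VE profile was subtracted from each cultured ExE library in the share named above, and the rest rescaled. Then 1188 genes rose and 410 fell, of which 1147 and 353 had also been called before. The visceral endoderm list went from 16 to 8 members higher, and 3 of its members were then lower. The share was set by the median ratio of this same list, so its drop follows by construction. Of the lists described further on, 3 FGF and ERK genes, 5 integrated stress response genes, 4 cholesterol synthesis genes, 2 Polycomb genes and 2 apoptosis genes were then higher and none lower. In the extracellular matrix and integrin list 6 were higher and 3 lower, and in the keratin, junction and polarity list 8 were higher and 1 lower. The parietal endoderm list had 7 members higher and none lower after the subtraction, with a median difference of 0.92 against 1.11 before. Elf5 became 169.9, 147.9 and 174.4 TPM in culture, with a difference of 1.89 (adjusted p = 8.1e-07). This subtraction was chosen after the data were seen.

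**Figure D3:**
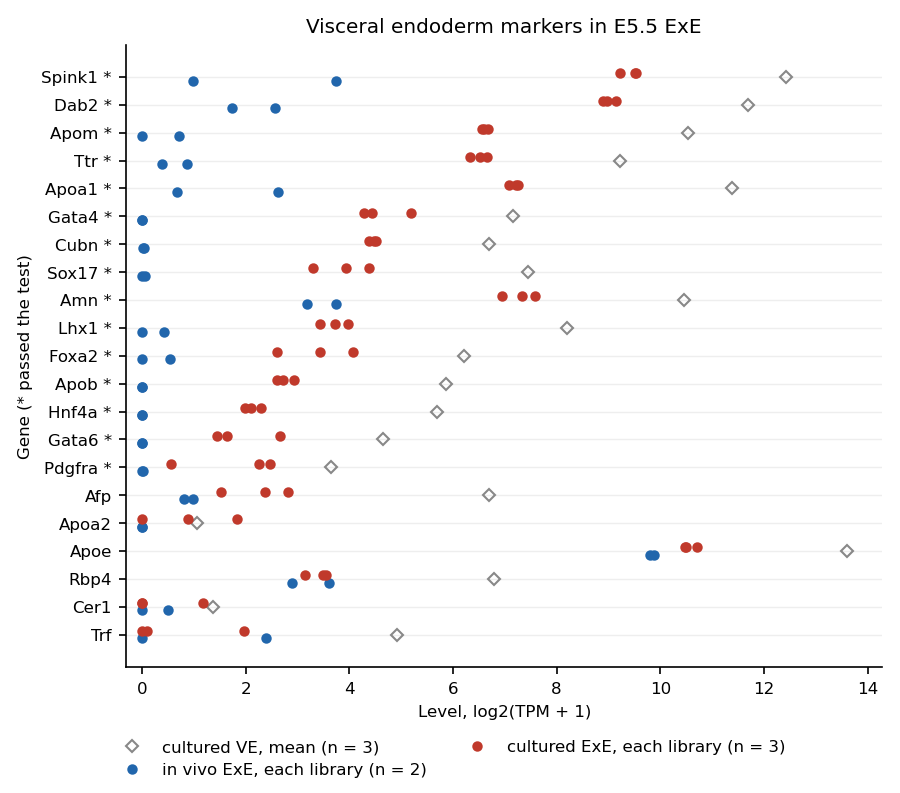
Level, as log2(TPM + 1), of 21 of the 22 visceral endoderm markers in each cultured (red) and each in vivo (blue) E5.5 ExE library, with the mean of the 3 cultured VE libraries (open diamonds); stars mark the genes that passed the test. The red points lie between the blue points and the diamonds for most genes, for example Dab2 at 473.2 to 563.6 TPM between at most 4.96 TPM and 3326.9 TPM.

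Targets of p53 rose as a group. Of 29 tested, 20 rose and none fell (all genes: 9.40% higher and 2.43% lower), and the median difference was 2.04. Cdkn1a (chromosome 17, 29090976 to 29100727, plus strand) was 50.5, 60.3 and 65.5 TPM in the cultured libraries and 4.54 and 5.33 TPM in vivo. Every cultured library was above both in vivo libraries, and the difference was 3.33 ± 0.51 (SE, limma, adjusted p = 2.2e-06), or 11.9-fold on the means of 58.8 ± 7.62 and 4.93 ± 0.564 TPM (SD, n = 3 and n = 2). Plk2, a stress-induced kinase, was 135.8, 127.3 and 163.9 TPM in culture and 0 and 6.35 TPM in vivo (5.72 ± 0.53, adjusted p = 3.3e-12). Phlda3, an inhibitor of AKT, was 199.8, 105.8 and 138.0 TPM in culture and 2.51 and 14.6 TPM in vivo (4.28 ± 0.34, adjusted p = 1.9e-14). Btg2, an antiproliferative gene, was 98.8, 107.2 and 88.8 TPM in culture and 8.92 and 9.22 TPM in vivo (3.30 ± 0.43, adjusted p = 6.6e-08). For these 4 genes the groups did not overlap.

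The members covered several arms of the p53 response. Those given next are named after their values were seen. Mdm2, the ubiquitin ligase that limits p53, was 163.2, 149.3 and 158.6 TPM in culture and 27.7 and 36.2 TPM in vivo, a difference of 2.27. Ccng1, a cyclin that acts in feedback on p53, was 107.8, 130.1 and 141.2 TPM against 9.48 and 16.2 TPM, a difference of 3.24. Of the cell death genes, Bax was 584.6, 512.9 and 558.8 TPM against 295.4 and 247.5 TPM, a difference of 1.03. Pmaip1 (Noxa) was 11.3, 12.7 and 2.27 TPM against 0 in both in vivo libraries, and Bbc3 (Puma), at 10, 0 and 7.61 TPM against 0 and 1.57 TPM, did not pass the test. The most abundant members that did not pass were Perp, a desmosome gene, at 105.1, 140.1 and 123.4 TPM against 43.8 and 61.7 TPM, and Tigar, a regulator of glycolysis, at 25, 30.9 and 37.4 TPM against 19 and 26.5 TPM. Fas, the death receptor, was listed at 0 in all 5 libraries.

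The levels in cultured VE bear on this list directly. Mean Cdkn1a was 60.5 TPM in cultured VE, close to the 58.8 TPM in cultured ExE, and in younger groups Cdkn1a averaged 88 TPM in trophectoderm of E4.5, 91 TPM in ExE of E4.75 and 136.1 TPM in giant cells of E4.75. Plk2 was 72.7 TPM in cultured VE against a mean of 142.3 TPM in cultured ExE. With the cultured VE profile subtracted, 19 of the 29 genes rose, the median was 2.00, and Cdkn1a was 49.2, 60.3 and 66.1 TPM. Under quantile normalization and median-ratio scaling 16 and 17 rose and none fell. With the spread taken from the 5 libraries alone, 9 rose, and Plk2 (adjusted p = 0.061) and Phlda3 (adjusted p = 0.069) missed the threshold while Cdkn1a (adjusted p = 0.014) and Btg2 (adjusted p = 0.012) did not.

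**Figure D4:**
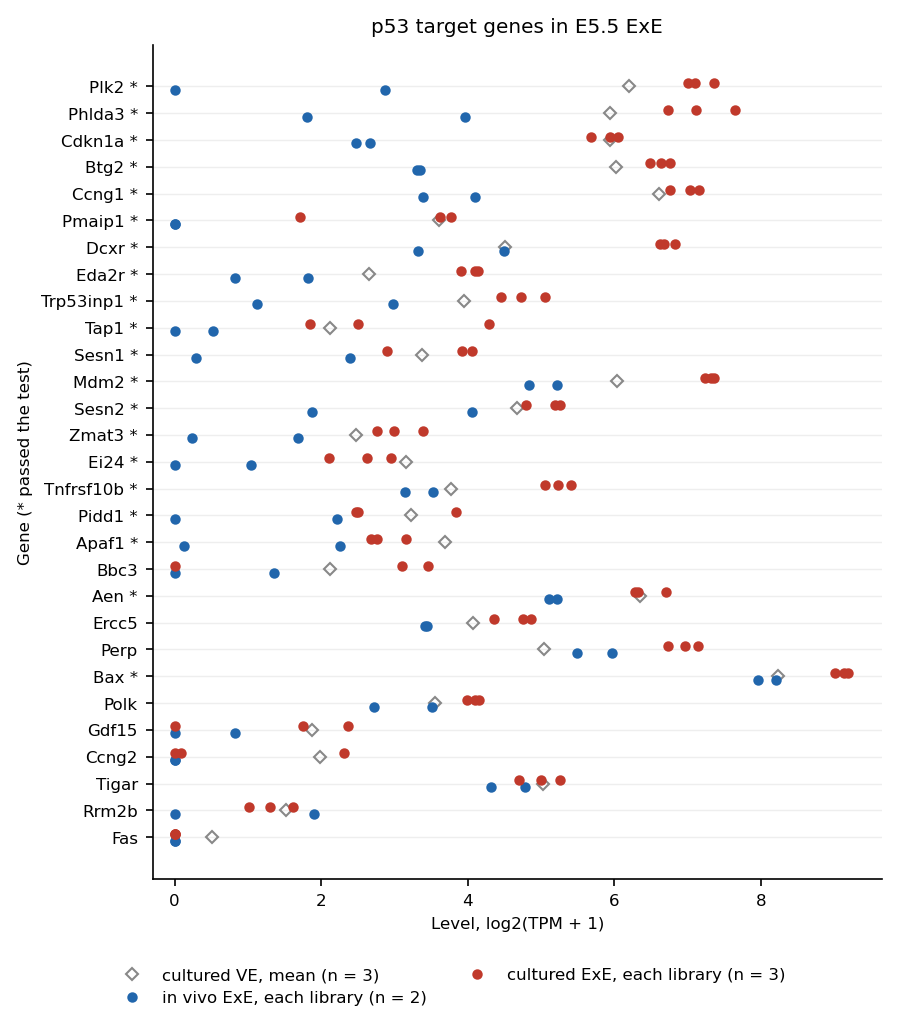
Level, as log2(TPM + 1), of 29 p53 target genes in each cultured (red) and each in vivo (blue) E5.5 ExE library, with the mean of the 3 cultured VE libraries (open diamonds); stars mark the 20 genes that passed the test. Red points lie to the right of blue points for all 4 genes at the top, Plk2, Phlda3, Cdkn1a and Btg2, and for several of them also to the right of the diamonds.

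Promoter sequences of these genes were searched for the p53 response element, which joins 2 half-sites of 10 bases. RefSeq windows (GRCm38.p6) from 250 bases before to 50 after each transcript start were scanned for abutting half-sites with at most 3 mismatches over the 20 bases and with the central C and G of each half-site kept. The element is its own reverse complement, so a match counts for both strands. Of the 23 list members with a window, 6 held such a match, and of all 27025 genes with a window 441 (1.63%) did. The list was chosen as p53 targets, so a larger share comes with that choice and does not bear on culture. The match is a description of the letters and not a measure of p53 binding. Shown are the stretches around the match for the 4 members that rose, on the gene's strand, 5′ to 3′, with the match in capitals. They lie at chr17:29090888-29090987 (Cdkn1a, plus strand), chr11:40755422-40755521 (Ccng1, minus strand), chr10:41887226-41887325 (Sesn1, plus strand) and chr7:78895897-78895996 (Aen, plus strand).
Cdkn1a: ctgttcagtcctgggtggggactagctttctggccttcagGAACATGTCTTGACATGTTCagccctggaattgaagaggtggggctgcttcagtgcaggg
Ccng1: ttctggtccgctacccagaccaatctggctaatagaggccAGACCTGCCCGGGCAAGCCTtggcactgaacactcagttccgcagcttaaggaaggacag
Sesn1: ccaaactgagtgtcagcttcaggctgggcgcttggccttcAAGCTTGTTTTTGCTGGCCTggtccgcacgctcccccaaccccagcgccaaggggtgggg
Aen: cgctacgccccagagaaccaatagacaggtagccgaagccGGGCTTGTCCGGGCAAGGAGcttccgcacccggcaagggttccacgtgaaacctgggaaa
The Cdkn1a and Ccng1 elements had 1 mismatch each and those of Sesn1 and Aen had 3. The other 2 members with a match, Bbc3 and Tigar, did not pass the test.

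Genes of the cell cycle and of cell death moved much less than the p53 targets. Their counts stand beside 9.40% higher and 2.43% lower among all genes. Of 26 cyclins, kinases and their inhibitors, 3 rose and none fell: Cdkn1a, the inhibitor Cdkn2b and Rb1. Cdkn2b was 10.1, 4.98 and 2.54 TPM in culture and 0 and 0.0864 TPM in vivo (2.57 ± 0.61, adjusted p = 0.0017). Cdk4 was 539.9 to 563.7 TPM in culture and 480.8 and 504.9 TPM in vivo, and did not pass. None of 24 DNA replication genes passed, and Pcna, the sliding clamp, was 425.4, 382.1 and 402.3 TPM in culture and 582.0 and 629.0 TPM in vivo, a difference of -0.59 ± 0.12. Of 20 mitotic genes, Ube2c and Nusap1 rose and Top2a, a topoisomerase, fell from 341.0 and 288.5 TPM in vivo to 138.4, 151.1 and 148.9 TPM in culture (-1.10 ± 0.25, adjusted p = 0.0011). Of 20 apoptosis genes, Bcl2l11 (Bim), Casp8 and Bax rose. Bcl2l11 was 23.6, 22.5 and 19.9 TPM in culture and 2.19 and 7.88 TPM in vivo (2.11 ± 0.45, adjusted p = 5.0e-04), with a mean of 3.48 TPM in cultured VE.

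The signals that the ExE exchanges with its neighbours were taken list by list, beside 9.40% higher and 2.43% lower among all genes. In the FGF and ERK list 4 of 23 rose and none fell, among them Etv4, an ETS factor induced by FGF, at 15.7, 11.2 and 6.2 TPM in culture and 0.0922 and 0.598 TPM in vivo (3.10 ± 0.45, adjusted p = 6.0e-07). The feedback inhibitors Spry2 (1216.7 to 1624.9 against 1171.3 and 1228.0 TPM) and Dusp6 (130.2 to 160.3 against 93.8 and 110.1 TPM) did not pass. In the BMP list 4 of 21 rose: Id3, Msx2 and Id1, direct targets of BMP, and the ligand Bmp2. Id3 was 68.5, 87.2 and 82.5 TPM in culture and 7.38 and 3.23 TPM in vivo (3.75 ± 0.31, adjusted p = 4.8e-14), and its mean in cultured VE was 488.2 TPM. With the cultured VE profile subtracted, 3 BMP genes were higher and 1 lower.

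The NODAL list had 5 of 21 members higher and none lower (all genes: 9.40% higher and 2.43% lower). Among those that rose were Foxh1, a partner of SMAD2, Smad2 itself, Nodal and Furin. Foxh1 was 12.1, 15.7 and 10.8 TPM in culture and 2.65 and 0 TPM in vivo, with 79.6 TPM in cultured VE. After the subtraction 2 were higher, and under quantile normalization 2 were higher and 2 lower. Of 27 WNT genes, Wnt11, Wnt3, Dkk1 and Porcn rose, each below 15 TPM in every ExE library, and Lef1 fell. The cultured VE means of the 4 that rose were 37.3, 49.8, 74.8 and 34.9 TPM. After the subtraction 1 WNT gene was higher and 1 lower, and under each of quantile normalization and median-ratio scaling 2 were higher and 2 lower. The part of VE RNA in the NODAL, BMP and WNT counts was not tested beyond this subtraction.

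Stress lists other than p53 moved in part, beside 9.40% higher and 2.43% lower among all genes. Of 30 genes of the integrated stress response, the ATF4 programme that answers amino acid and protein folding stress, 6 rose and none fell. Trib3, a pseudokinase, was 53.5, 39.7 and 37 TPM in culture and 3.99 and 7.97 TPM in vivo (2.71 ± 0.47, adjusted p = 1.9e-05). Chac1, a glutathione-degrading enzyme, was 25.8, 19.4 and 20.6 TPM in culture and 0 and 4.71 TPM in vivo (3.25 ± 0.51, adjusted p = 3.5e-06), with 0.314 TPM in cultured VE. Asns, asparagine synthetase, at 473.7 to 566.0 against 378.7 and 424.9 TPM, did not pass. Under quantile normalization 4 of the list were higher and 1 lower.

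In the oxidative stress and NRF2 list 6 of 27 rose and none fell (all genes: 9.40% higher and 2.43% lower). Fth1, the ferritin heavy chain, was 2342.8, 2320.1 and 2579.9 TPM in culture and 881.9 and 1052.0 TPM in vivo (1.32 ± 0.10, adjusted p = 1.5e-15), with 7027.1 TPM in cultured VE, and 3 of the list were higher after the subtraction. Heat shock genes went partly the other way, with 1 of 16 higher and 3 lower. Hsp90aa1, a cytosolic chaperone, was 1049.4, 1124.4 and 1147.9 TPM in culture and 2765.0 and 2498.1 TPM in vivo (-1.25 ± 0.12, adjusted p = 1.6e-11). Hsp90ab1 and the mitochondrial chaperone Hspd1 fell as well, by 1.03 and by 1.20, while the small chaperone Hspb1 was 117.1, 104.9 and 110.3 TPM in culture and 23.8 and 26.3 TPM in vivo (2.10 ± 0.17). In the endoplasmic reticulum stress list 2 of 22 rose and 1 fell.

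The counts of the metabolic lists stand beside 9.40% higher and 2.43% lower among all genes. None of 23 hypoxia genes rose and 3 fell, and of 21 glycolytic genes none rose and 2 fell. Hk2, the hexokinase that starts glycolysis, is on both lists and was 69.6, 75.1 and 59.3 TPM in culture and 160.7 and 158.7 TPM in vivo (-1.23 ± 0.32, adjusted p = 0.005). Gpi1, the next enzyme of the pathway, was 152.8, 133.1 and 166.1 TPM in culture and 289.5 and 345.8 TPM in vivo (-1.07 ± 0.16, adjusted p = 1.7e-06). Eno1 and Pkm, later glycolytic enzymes, differed by -0.52 and 0.09 and were not called. Of 34 oxidative phosphorylation genes Cox5a rose. Of 24 cholesterol synthesis genes 5 rose and none fell. Fdps, a prenyl synthase, was 566.6, 638.0 and 553.8 TPM in culture and 278.0 and 264.2 TPM in vivo (1.11 ± 0.19, adjusted p = 2.6e-05). The cholesterol count was 4 higher and 2 lower under quantile normalization and 1 higher and 2 lower under median-ratio scaling. The median difference of the list was 0.76, and 0.60 and 0.56 under these scalings.

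Of 31 imprinted genes, 7 rose and Phlda2 alone fell (all genes: 9.40% higher and 2.43% lower). Mest, a hydrolase, was 197.6, 187.9 and 214.1 TPM in culture and 67.1 and 60.1 TPM in vivo (1.64 ± 0.56, adjusted p = 0.035), with 434.9 TPM in cultured VE. Peg3, a zinc finger gene, was 23.2, 16.7 and 24.7 TPM in culture and 3.01 and 9.61 TPM in vivo (1.77 ± 0.41, adjusted p = 0.0014), and Cd81 and Zrsr1 also rose. Sfmbt2 and Slc38a4, imprinted genes of the placenta, were not called. After the subtraction 4 imprinted genes were higher and 1 lower.

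Among 29 keratin, junction and polarity genes 8 rose and 1 fell, and of 31 matrix and integrin genes 8 rose and 2 fell. Among all genes 9.40% rose and 2.43% fell. Gja1, the gap junction protein connexin 43, was 151.3, 190.1 and 155.0 TPM in culture and 4.79 and 6.21 TPM in vivo (4.68 ± 0.33, adjusted p = 4.4e-16), and its mean in cultured VE was 1178.1 TPM. Krt19, a keratin, was the member that fell, from 64.1 and 103.8 TPM to 31.5, 14.3 and 26.9 TPM. The integrin subunits Itgb4 and Itgav fell by 1.44 and by 1.31. Of 36 actin cytoskeleton genes 6 rose and none fell, while Actb differed by -0.72 ± 0.17 and stayed under the size threshold.

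Chromatin lists showed few changes, beside 9.40% higher and 2.43% lower among all genes. Of 15 DNA methylation genes, Tet3, an oxidase of methylcytosine, fell from 5.52 and 4.9 TPM to 0.756, 2.11 and 1.69 TPM. Dnmt3b was 164.2 to 188.3 TPM in culture and 132.7 and 136.3 TPM in vivo, and was not called. Phc2, Ring1 and Yaf2 were the 3 of 28 Polycomb genes that rose, and the H3K27 methyltransferase Ezh2 was not called, at 145.4 to 159.8 against 204.9 and 242.2 TPM. Of 21 enzymes and partners of H3K4 and H3K27 methylation, the demethylase Kdm6b fell from 270.8 and 249.3 TPM to 124.6, 130.0 and 121.7 TPM (-1.05 ± 0.36, adjusted p = 0.041). In the ribosomal protein list Rpl5 fell, from 3873.4 and 3152.1 TPM to 1341.0, 1406.2 and 1327.0 TPM (-1.36 ± 0.11, adjusted p = 4.6e-14), the only member of 29 that passed.

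Of the 15 named genes with the largest rise, 13 had a higher mean in cultured VE than in cultured ExE. Pga5, a pepsinogen, was 119.1, 152.4 and 154.1 TPM in culture and listed at 0 in both in vivo libraries, with 636.7 TPM in cultured VE. Lgals2, Soat2 and Car7 were likewise listed at 0 in both in vivo libraries. The exceptions were Plk2, described above, and Slc4a11. The latter, a membrane transporter, was 94.4, 71.2 and 73.3 TPM in culture and 1.36 and 0 TPM in vivo (5.70 ± 0.50, adjusted p = 5.1e-13), with 6.93 TPM in cultured VE.

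The largest falls were of another kind. Stfa1, a cysteine protease inhibitor of the stefin family, was listed at 0 in all 3 cultured libraries and was 33.4 and 31.4 TPM in vivo. Rhox2a, from a cluster of near-identical X-linked copies whose reads may be split between them, was 5.82, 2.24 and 1.4 TPM in culture and 40.5 and 39.8 TPM in vivo (-3.45 ± 0.43, adjusted p = 1.6e-08), and Rhox1 of the same cluster also fell. Scn2b, a sodium channel subunit, was 1.09, 0 and 0.852 TPM in culture and 38.7 and 24.7 TPM in vivo. Snora31, Snord118, Snord99 and Snord83b are small nucleolar RNAs. Snora31 (chromosome 14, 75847905 to 75848034) was 19.8, 9.35 and 11.8 TPM in culture and 469.0 and 499.8 TPM in vivo. Such RNAs lack a polyA tail and are 130 bases long in this case, so a polyA library gives an uncertain TPM for them.

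Several of the falls were shared by the other lineages. Rpgrip1, a ciliary gene, was 54.1, 28.7 and 18 TPM in cultured ExE and 410.8 and 1051.4 TPM in vivo, a difference of -4.39, and differed by -5.16 in Epi and -6.77 in VE. Npm3, a nucleolar chaperone, differed by -2.99 in ExE, -3.83 in Epi and -2.90 in VE. Of the genes that fell in ExE, 101 fell in all 3 lineages. That is 26.7% of the ExE list, 9.65% of the Epi list and 12.9% of the VE list. Of those that rose, 275 rose in all 3, which is 18.8%, 11.7% and 7.73% of the lists. Each lineage taken alone, 6.73% of all genes tested fell in Epi and 5.02% in VE, and 15.1% and 22.9% rose. These shares are no background for a change in all 3 lineages. The share of all genes that changed in Epi and VE together was not computed. Whether more genes were shared than by chance was thus not tested. Among the genes that rose in all 3 lineages were 11 p53 targets, Cdkn1a, Plk2, Phlda3, Btg2 and Ccng1 included.

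The culture difference of ExE was then tested against that of the epiblast (Epi, 3 cultured and 2 in vivo libraries) and of VE (3 cultured libraries against 2 of VE over the epiblast and 3 of VE over the ExE in vivo). Against Epi it was higher for 792 genes (5.09%) and lower for 765 (4.91%). Against VE it was higher for 652 genes (4.19%) and lower for 1016 (6.53%). Of the 27 genes of the ExE and of trophoblast stem cells, 9 rose in Epi and 1 fell, with a median of 0.44. Among all genes 15.1% rose in Epi and 6.73% fell. Tfap2c and Gata3 of this list rose there by 2.82 and 2.16. Elf5 differed by 2.03 in Epi and 1.51 in VE, from means of 0 TPM (Epi) and 0.464 TPM (VE over the ExE) in vivo to 3.46 and 2.52 TPM in culture. The part of cells or RNA from neighbouring lineages in these comparisons was not tested.

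The p53 targets rose in the other lineages as well. In Epi 19 of 29 rose (all genes: 15.1% higher) with a median of 1.53, and in VE 21 of 29 rose (all genes: 22.9% higher) with a median of 1.35. The difference of Cdkn1a was 1.88 in Epi and 3.37 in VE, and neither differed from the 3.33 in ExE past the threshold (ExE minus Epi 1.45 ± 0.73, adjusted p = 0.22, and ExE minus VE -0.05 ± 0.66, adjusted p = 1). The difference in ExE was larger than in Epi for 5 members and smaller for 1, and larger than in VE for 4 and smaller for 1. For all genes the shares were 5.09% larger and 4.91% smaller against Epi, and 4.19% larger and 6.53% smaller against VE. Plk2 rose more in ExE than in Epi, by 3.55 ± 0.75 (adjusted p = 7.1e-04), and Phlda3 by 2.69 ± 0.48 (adjusted p = 7.4e-05). Perp, which was not called in ExE, rose by 3.78 in Epi and 3.88 in VE, and its difference in ExE was smaller than both, by 2.56 and by 2.67.

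Immediate early genes, the first genes that cells switch on after growth factor or mechanical stimulation, showed another pattern. Of 20 tested, 15 rose in cultured Epi and 14 in cultured VE, with medians of 1.71 and 1.77. In cultured ExE 2 rose and 1 fell, with a median of 0.14. Among all genes 15.1% rose in Epi, 22.9% in VE and 9.40% in ExE, where 2.43% fell. The difference in ExE was smaller than in Epi for 6 of the 20 and larger for none, and smaller than in VE for 10 and larger for 1. Among all genes the ExE difference was smaller than in Epi for 4.91% and larger for 5.09%. Against VE it was smaller for 6.53% and larger for 4.19%. Under median-ratio scaling and quantile normalization 1 member rose in ExE, and 3 and 4 fell. Fos, a subunit of AP-1, was 132.5, 117.3 and 133.3 TPM in cultured ExE and 288.2 and 235.0 TPM in vivo, all in vivo values above all cultured ones (-1.02 ± 0.39, adjusted p = 0.065). In Epi its mean went from 7.6 to 52.2 TPM and in VE from 12.4 TPM (over the epiblast) and 58.5 TPM (over the ExE) to 124.3 TPM. The difference of Fos in ExE was thus smaller than in Epi by 3.64 ± 0.55 (adjusted p = 3.5e-06) and than in VE by 3.27 ± 0.50 (adjusted p = 3.3e-06).

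Egr1, a zinc finger factor, was 38.6, 32.9 and 40.1 TPM in cultured ExE and 34.4 and 32.7 TPM in vivo, with overlap. Its difference was smaller than in VE by 3.52 ± 0.49 (adjusted p = 4.9e-07) and not called against Epi (adjusted p = 0.093). Dusp1, a phosphatase that switches off MAP kinases, was 276.6, 258.6 and 307.1 TPM in culture and 323.0 and 366.4 TPM in vivo, and Ier2 was 247.2 to 300.1 against 240.4 and 327.9 TPM. Both rose in Epi (1.76 and 1.27) and in VE (1.82 and 1.94). The members that rose in ExE were Btg2, a p53 target too, and Atf3, a stress factor, and Klf4 fell. Fos and Egr1 are named after their values were seen. In vivo, the ExE level of Fos was above that of Epi and VE, whereas in culture ExE and VE were close, with means of 127.7 and 124.3 TPM.

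**Figure D5:**
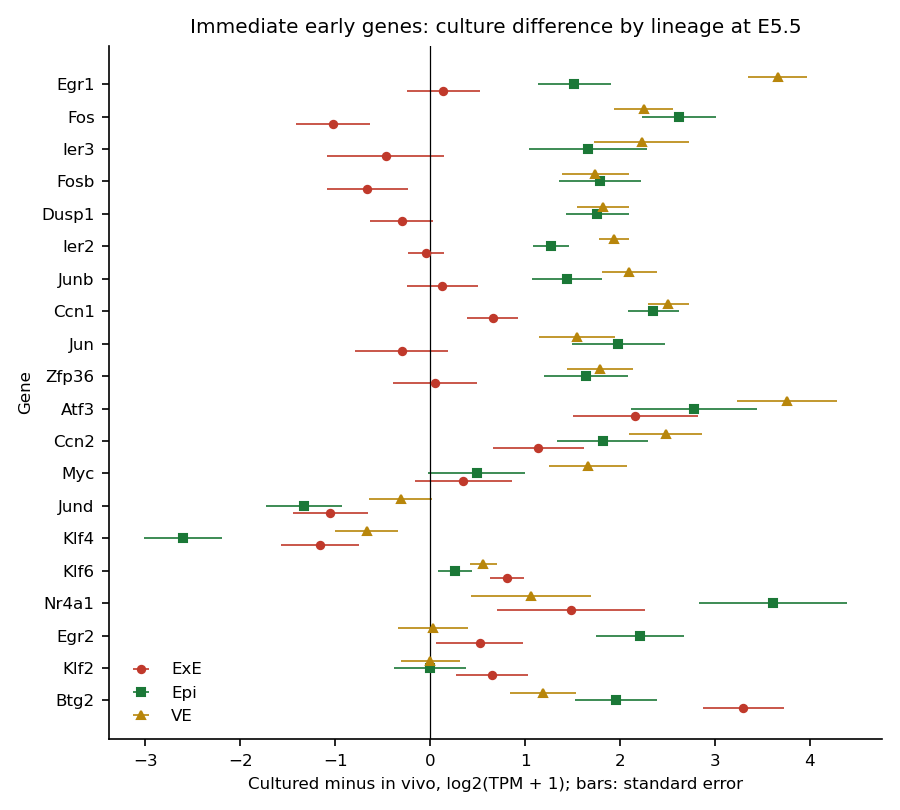
Culture difference (cultured minus in vivo, log2(TPM + 1), with standard error bars) of 20 immediate early genes in ExE (red circles), Epi (green squares) and VE (gold triangles) at E5.5, ordered by the ExE difference minus the VE difference. For Egr1, Fos, Dusp1 and Ier2 the ExE points lie near or left of 0 (0.14, -1.02, -0.30 and -0.04), while the Epi and VE points lie at 1.27 or more.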

How the data were processed

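The deposited table gives TPM for 25006 genes in 67 libraries of 23 groups. The authors used HISAT2 2.2.1, StringTie 2.2.1 and Cufflinks with the mm10 build, per the submitters' processing notes. Which tool did what, the gene models and whether strand was used are not given in the sources used here, so overlapping and near-identical genes are uncertain. TPM keeps no read depth, so the depth is unknown and no counting interval is given.

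The 15567 genes that reached 1 TPM in 3 or more libraries were fitted with limma 3.58.1 (R 4.3.3) on log2(TPM + 1), with 1 mean per group over all 67 libraries, a trended prior and Benjamini-Hochberg adjustment. Contrasts were cultured minus in vivo ExE, and that difference minus those of Epi and VE. The fit was tested on simulated data. Members and gene lists were chosen with earlier results of these data known. Lists held 945 symbols, of which 930 matched. Named genes were Elf5 and Cdkn1a, the 15 largest non-overlapping calls per direction without predicted genes, Y-linked genes and Xist, up to 4 calls per direction and the 2 most abundant uncalled members of each list, and 6 calls per direction in each lineage comparison. Not every gene so chosen is printed, and some results are not reported here. Positions are from GENCODE M21 (GRCm38).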

Additional observations from a re-analysis of the deposited data

Results flagged for a closer look

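The culture difference of ExE differed from that of another lineage, by a test of the difference itself (limma, adjusted over 15567 genes), for 792 genes upward and 765 downward against Epi, and for 652 upward and 1016 downward against VE. The following are the genes of largest size that also passed in ExE. Values are the ExE difference minus the other lineage's difference, on the log2 scale to 1 decimal.

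Against Epi the highest were Ttr at 9.4, Apom at 9.3, Spink1 at 9.2, Apoa1 at 8.8, Pga5 at 8.3 and Apoc2 at 8.3. Most of these are secreted or lipid-carrying products of endoderm, and all of them but Pga5 fell in cultured Epi. Means of those that fell were 13.3 TPM (Apoc2) to 26.7 TPM (Apoa1) in Epi in vivo. In cultured Epi they were 0.368 TPM (Ttr) to 3.98 TPM (Spink1). The 2 in vivo Epi libraries were uneven for some, with an SD of 13 TPM for Apom and 14.9 TPM for Apoa1. The source of these transcripts in Epi was not tested. The lowest were the stefin gene Stfa1 at -5.3, the histone gene H2ac20 at -5.1, the kinase gene Cdk18 at -5.0, the villin-like gene Vill at -4.9, the phosphatase gene Alpl at -4.5 and the small nucleolar RNA Snora33 at -4.4.

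Against VE the highest were Apoc2 at 8.9, Apom at 6.6, Aqp8 at 6.4, Ttr at 6.3, Lgals2 at 6.2 and Fcgrt at 6.0. The lowest were Cntf at -4.7, the amino acid transporter Slc7a3 at -4.5, the microRNA gene Mir6385 at -4.4, Stfa1 at -4.4, H2ac20 at -4.4 and Snora33 at -4.2. H2ac20 was 23.1, 0.492 and 25.3 TPM in the cultured ExE libraries, so the cultured libraries were uneven for it.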

How the results depend on the processing

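In vivo ExE has 2 libraries, and TPM holds no depth, so low values carry an unknown counting error. Leaving out each ExE library gave 1117 to 1374 genes higher and 310 to 355 lower, and 15 to 20 p53 targets. Under quantile normalization 745 rose and 702 fell, and 957 rose after median-ratio scaling. A fit of only the groups compared gave 465 and 166 genes, 9 p53 targets, 325 and 237 genes against Epi, and 320 and 268 against VE. That fit has fewer samples to estimate the spread, and 72 of 151 named calls missed the threshold in it. A pseudocount of 0.1 gave 243 lower genes, the adjusted p alone 581, and the spread of trophoblast groups only, added after the data were seen, 2198 higher. Array weights gave 316 and 353 genes against Epi, and median-ratio scaling 615 lower against VE. The cause of these was not tested. With the cultured VE profile subtracted, 8 visceral endoderm genes were higher, and the difference turned negative for Apom (-0.35), Apoa1 (-1.65), Fgf5 (-0.17), Otx2 (-0.81), Apoe (-1.87), Rbp4 (-3.24), Dkk1 (-0.08) and Vil1 (-0.54). The share subtracted was set by the visceral endoderm list, which holds Apom, Apoa1, Apoe and Rbp4 but not Fgf5, Otx2, Dkk1 and Vil1. Same-numbered cultured and in vivo libraries did not deviate together (r = 0.017 and 0.011), and the labels do not pair them. With the replicate block 1471 genes rose and 349 fell.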
